A study of Mus musculus with 2 samples.

Results

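Gamma delta T cells are T lymphocytes whose antigen receptor is built from a gamma and a delta chain in place of alpha and beta. They were chosen here by measured values: a barcode of the mouse colon was taken as a member if it carried at least 1 UMI (a unique molecular identifier, which counts 1 RNA molecule) of Trdc, the constant segment of the delta chain. It also needed at least 1 UMI of Cd3e, Cd3d or Cd3g, the signalling chains of every T cell receptor, and no UMI of Foxp3, Cd4 or Cd79a. Barcodes were kept from 500 UMIs and 200 genes upward and up to 25% mitochondrial UMIs. Of 17858 kept, 182 met the rule: 41 of 8124 in the wild-type library and 141 of 9734 in the other. Trdc and the CD3 genes chose the members, so their levels are given as description only. Both libraries come from the colon (proximal and distal) and rectum of C57BL/6 mice aged 8-10 weeks that had received DSS (dextran sulfate sodium), which damages the lining of the colon and serves as a colitis model. One library is labelled WT and the other Elf-1 KO, described as Elf-1-/- mice. Each pools the cells of 3 mice with no map from barcode to mouse. The sources used here do not give the dose or days of DSS, nor which part of Elf1 was deleted. With 1 library a group nothing was tested. Pairs of values are wild type first and labelled knockout second. Intervals in parentheses are 95% intervals that cover counting error only, not the spread between mice. Those of UMI ratios also leave out the spread between cells. PCR copies were already collapsed by the UMIs.

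Gamma delta T cells of the gut fall into broad kinds that are told apart by their receptors and products. Intraepithelial cells sit between the epithelial cells, carry CD8 alpha chains and cytotoxic molecules such as granzymes, and watch the barrier. A second kind, found in the lamina propria and in other barrier tissues, makes interleukin 17 (IL-17) soon after exposure to interleukin 23 and interleukin 1. IL-17 acts on epithelial cells and fibroblasts, which answer with chemokines for neutrophils and with antimicrobial proteins. In mice many IL-17 producers share a receptor made with the variable segments Tcrg-V6 and Trdv4.

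In all, 8635 and 10012 barcodes with 32481613 and 39750319 UMIs were deposited. Kept barcodes had medians of 2041 and 2679 UMIs. The sequences of 57 barcodes occurred in both libraries, none of them a member. The members held 161015 and 489394 UMIs, at a median of 2324 and 1963 UMIs per barcode, of which a median of 2.09% and 2.20% were mitochondrial, so depth per member was similar. Elf1, the ETS-family transcription factor named in the label (chromosome 14, 79481194 to 79582494, plus strand, GENCODE on GRCm38), was detected in the members of both libraries. It had 53 and 128 UMIs in 26 and 72 members, or 329 and 262 CPM (UMIs scaled to the members' total UMIs), a ratio of 0.795 (0.573 to 1.12) for labelled knockout over wild type. This level over the whole gene is no check of the deletion, and directions follow the labels. RNA of other cells was unevenly spread between the libraries: the keratin Krt8 had a UMI in 17.5% and 0.323% of B cells, the neutrophil protein S100a8 in 8.98% and 69.8%, and the acute-phase protein Saa3 in 19.1% and 84.0%. B cells (at least 2 UMIs of Cd79a and no CD3, 2016 and 619 barcodes, medians of 1676.5 and 1802 UMIs) should lack these RNAs and are given below as the background of free RNA.

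The label was checked against its 5 given markers, Trdc, Tcrg-C1, Il17a, Cxcr6 and Il7r, and fewer wild-type than labelled knockout members showed most of them. Trdc is also part of the rule, so every member showed it and only the other markers could differ. At least 3 of the 5, Trdc included, were seen in 8 of 41 wild-type members (19.5%) and in 94 of 141 labelled knockout members (66.7%). Only Trdc was seen in 17 (41.5%) and 20 (14.2%), and all 5 in 1 and 16. Without barcodes that carried markers of other cells, at least 3 were seen in 7 of 34 and 87 of 116 (20.6% and 75.0%). These barcodes, called carriers here, held at least 3 UMIs of keratins or Epcam, or 2 each of the collagens Col1a1 and Col3a1, or 5 each of S100a8 and S100a9, or both C1qa and Lyz2, or 2 of the B cell genes Cd79b or Ms4a1. This definition was chosen after seeing the data. In the wild-type library 5 members carried epithelial, 2 fibroblast and 1 macrophage markers. In the other library 18 carried fibroblast, 8 neutrophil, 3 macrophage and 1 B cell markers, and a barcode could carry more than 1 kind. One wild-type carrier alone had 45942 of the 161015 UMIs, and the deepest wild-type member that was not a carrier had 9692. The main results below are therefore also given for the 34 and 116 members that were not carriers. They are called without carriers or without other markers, but they only fall under these limits. A UMI of the fibroblast and muscle marker list was in 16 and 104 of them, and of the neutrophil list in 8 and 103.

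Trdc (chromosome 14, 54142851 to 54148868, plus strand) had a median of 2 and 5 UMIs per member and a maximum of 27 and 53. Exactly 1 Trdc UMI was present in 8 and 29 members, which lie just inside the rule. In the library labelled knockout these 29 carried the constant segment Tcrg-C1 in 24.1% and Il17a in 24.1%, against 61.6% and 58.0% of the 112 members with more Trdc. In the wild-type library Tcrg-C1 was in 62.5% of the 8 and 45.5% of the 33 others. Just outside the rule, 6 and 9 barcodes held Trdc and CD3 with a UMI of Cd4, Foxp3 or Cd79a, and 16.7% and 33.3% of them had Tcrg-C1. A further 50 and 810 barcodes held Trdc without CD3, of which 23 and 475 met the rule for fibroblasts. Trdc was found in 0.0992% and 2.75% of B cells, and after thinning every barcode to 1000 UMIs in 0% and 0.564%. RNA of the alpha beta receptor was common among the members: a UMI of Trac was in 26.8% and 17.7%, of Trbc1 in 43.9% and 32.6%, and of Trbc2 in 78.0% and 52.5%. Only 3 wild-type members and 44 labelled knockout members had no UMI of any of these 3. Whether the other members are all gamma delta T cells cannot be told from these counts. In B cells Trbc2 was in 1.74% and 0.646%, and in the CD8 T cells defined below in 93.1% and 78.8%. Trbc1 and Trbc2 are near-identical copies whose reads may be split, and the sources used here do not say how multi-mapped reads were counted.

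**Figure D1:**
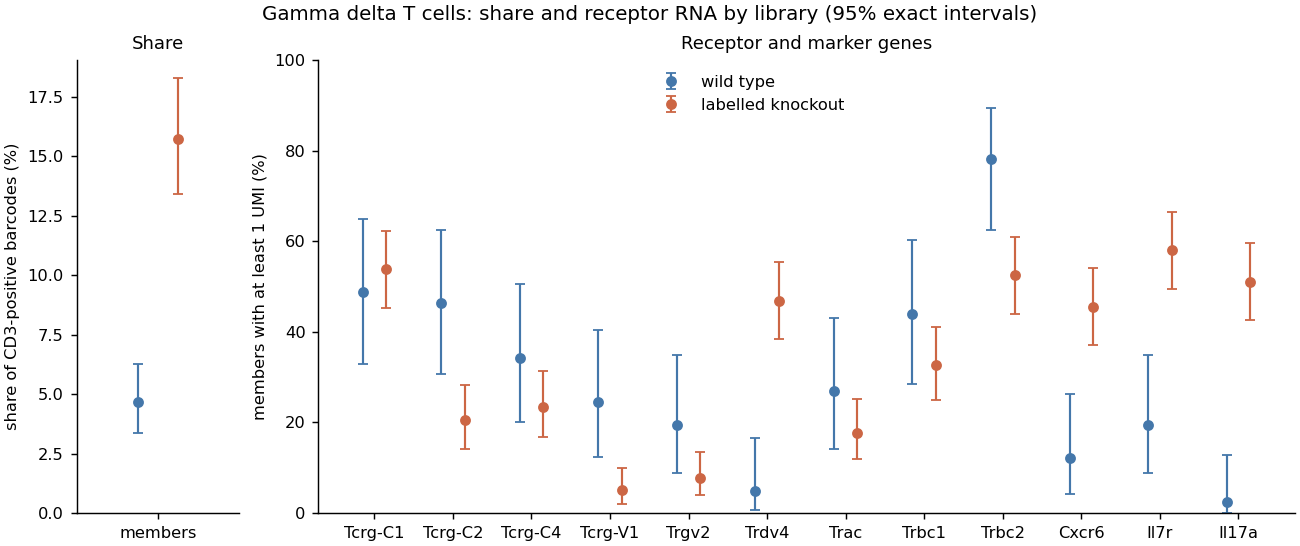
Left, members as a share (%) of all barcodes with a CD3 UMI in each library; right, the share (%) of members with at least 1 UMI of receptor and marker genes. Points are the 2 libraries (41 and 141 members) and bars their 95% exact binomial intervals. The labelled knockout point is higher for the share of CD3 barcodes (15.8% against 4.66%), Trdv4, Cxcr6, Il7r and Il17a, and lower for Tcrg-C2, Tcrg-V1 and Trbc2.

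The members made up a larger share of the CD3 barcodes in the library labelled knockout. Most members, in the wild type above all, carried alpha beta receptor RNA. The share is thus that of the rule and may not be that of gamma delta T cells alone. Of the barcodes with a CD3 UMI and no Cd79a, 41 of 879 (4.66%, 3.37 to 6.27, Clopper-Pearson) were members in the wild-type library and 141 of 895 (15.8%, 13.4 to 18.3) in the other, a ratio of 3.38 (2.37 to 4.91). Of all kept barcodes they were 0.505% and 1.45%, a ratio of 2.87 (2.01 to 4.17). Among barcodes with Ptprc, the CD45 gene of leukocytes, the shares were 0.846% and 2.86%, a ratio of 3.39 (2.26 to 5.19). CD4 T cells (CD3 and Cd4, without Cd8a, Cd8b1, Trdc or Foxp3) numbered 146 and 121 and CD8 T cells (CD3 and Cd8a or Cd8b1, without Cd4, Trdc or Foxp3) 174 and 99, so that members were outnumbered by CD8 T cells in the wild-type library and outnumbered them in the other. Restricting the members to those without a UMI of Trac, Trbc1 or Trbc2 left 3 and 44, or 0.341% and 4.92% of CD3 barcodes, and raised the ratio to 14.4. The spread of this share between mice cannot be known from pooled cells.

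The receptor genes of the members differed in kind between the libraries. Trdv4, the delta variable segment of many IL-17 producers (chromosome 14, 54074905 to 54075515, plus strand), had 7 UMIs in 2 of 41 wild-type members (4.88%) and 236 UMIs in 66 of 141 labelled knockout members (46.8%). The ratio of its CPM was 11.1 (5.30 to 27.9), and 8.28 (3.95 to 20.9) without carriers. After thinning, Trdv4 was in 2.70% and 32.6% of 37 and 129 members and in 0% and 0.188% of B cells. Of its presumed partner, Tcrg-V6, 4 members of the library labelled knockout had a UMI and no wild-type member did. The exact interval of 0 of 41 allows a UMI in up to 8.60% of wild-type members and sets no limit on use of the segment. At that depth most of the gamma chain variable segments of the members cannot be told. Tcrg-V1 had 10 UMIs in each library, in 24.4% and 4.96% of members, which is 3.04-fold (1.14 to 8.14) lower in the library labelled knockout. Trgv2 was in 19.5% and 7.80%.

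Among the gamma constant segments, Tcrg-C1 (chromosome 13, 19214103 to 19217024, plus strand) had 51 and 242 UMIs, in 48.8% and 53.9% of members, a ratio of 1.56 (1.15 to 2.16), and of 1.29 (0.940 to 1.79) without carriers. Tcrg-C2 had 55 UMIs in each library, in 46.3% and 20.6% of members, 3.04-fold (2.05 to 4.5) lower in the library labelled knockout and 4.22-fold (2.77 to 6.46) without carriers. Tcrg-C4 was in 34.1% and 23.4%. Tcrg-C2 was not particular to the members, since 35.1% and 26.3% of CD8 T cells had a UMI of it. Tcrg-C1 and Tcrg-C2 are close copies, so that the split between them is uncertain. Cd8a, the alpha chain of the CD8 coreceptor that intraepithelial cells carry, had 23 UMIs in 8 wild-type members and 1 UMI in 1 labelled knockout member, 69.9-fold (11.4 to 2880) lower in the latter. The 7 Cd8a-positive wild-type members without other markers had Trac in 85.7% and Tcrg-C2 in 85.7%, so the RNA of both receptor types lay in the same barcodes.

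Il17a led the genes that were higher in the labelled knockout members. It encodes IL-17A (chromosome 1, 20730905 to 20734496, plus strand). It had 1 UMI in 1 of 41 wild-type members (2.44%) and 1046 UMIs in 72 of 141 labelled knockout members (51.1%), or 6.21 and 2137 CPM, a ratio of 344 (61.6 to 13606). Without carriers the ratio was 268 (47.9 to 10583). On the log2 scale the ratio was 8.43, and 7.10 after thinning. It was at least 6.38 with at least 2 Trdc UMIs and at least 2.21 among the 3 and 44 members without alpha beta RNA, where the wild-type members had 0 Il17a UMIs, taken as 3. Within the library labelled knockout the RNA was uneven: positive members had a median of 5.5 UMIs and a maximum of 79, and the 10 highest held 52.8% of the members' Il17a. In the wild-type library the members held 0.943% of the 106 Il17a UMIs, and 20.8% lay in CD4 T cells. A further 50% lay in 9 of the 518 CD3 barcodes that were neither members nor CD4 or CD8 T cells. In the library labelled knockout the members held 54.6% of 1914 UMIs, CD4 T cells 12.6% and such other CD3 barcodes 20.3%. Members were thus 1.45% of the labelled knockout barcodes and held most of its Il17a.

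The share with Il17a was above the background of free RNA in the labelled knockout members. After thinning it was 2.70% and 46.5% of members, against 0.0547% and 0.376% of B cells. In all UMIs it was 1.37% and 19.8% of CD4 T cells, 0% and 2.02% of CD8 T cells, and 2.00% and 7.32% of innate lymphoid cells without CD3 (50 and 41 barcodes). Fibroblasts of the library labelled knockout, at a median of 6249 UMIs, had it in 0.988%. The Il17a share was therefore higher under the knockout label in CD4 T cells too, and the plot of Il17a across populations sets them side by side.

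**Figure D2:**
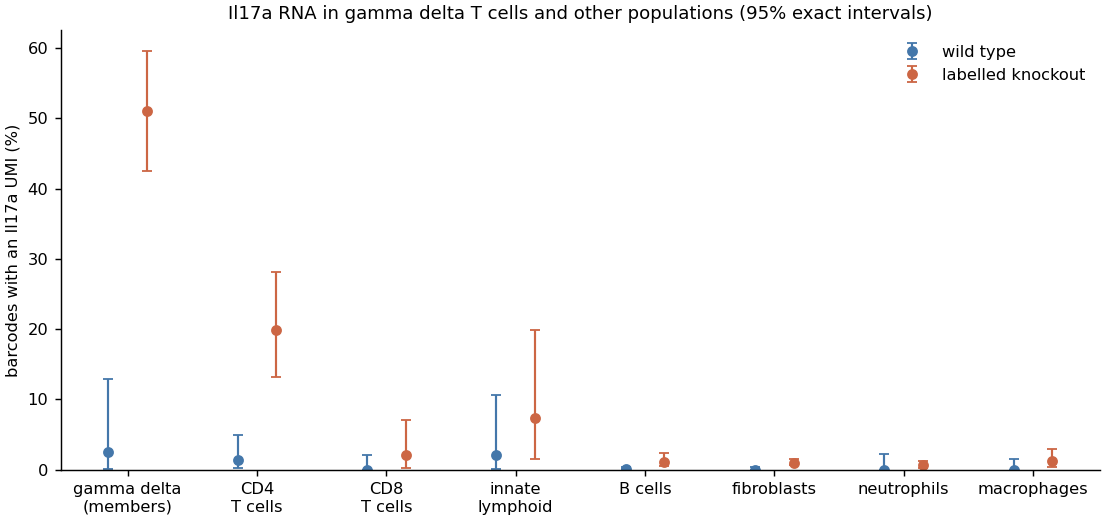
Share (%) of barcodes with at least 1 Il17a UMI in the members and 7 other populations. Points are the 2 libraries and bars 95% exact binomial intervals. The labelled knockout members (51.1%) lie above every other population drawn, followed by CD4 T cells of the same library (19.8%), and the wild-type members (2.44%) lie with the other wild-type populations.

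The promoters of the IL-17 genes and of the receptor that drives them are shown because their windows share a short word. The sequences are the 250 bases before the start of each gene in RefSeq (GRCm38.p6), printed 5′ to 3′ on the gene's strand. The capitals mark AGGTCA or its reverse complement TGACCT, a core word that several nuclear receptors are known to bind. The windows are chr1:20730655-20730904 (plus strand) for Il17a, chr1:20784271-20784520 (minus strand) for Il17f and chr6:67491856-67492105 (minus strand) for Il23r.
Il17a: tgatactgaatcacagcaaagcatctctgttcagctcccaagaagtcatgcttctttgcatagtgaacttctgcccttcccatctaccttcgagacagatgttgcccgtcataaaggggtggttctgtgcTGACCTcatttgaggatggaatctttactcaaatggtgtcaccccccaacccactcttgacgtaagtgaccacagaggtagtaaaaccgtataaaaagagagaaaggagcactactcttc
Il17f: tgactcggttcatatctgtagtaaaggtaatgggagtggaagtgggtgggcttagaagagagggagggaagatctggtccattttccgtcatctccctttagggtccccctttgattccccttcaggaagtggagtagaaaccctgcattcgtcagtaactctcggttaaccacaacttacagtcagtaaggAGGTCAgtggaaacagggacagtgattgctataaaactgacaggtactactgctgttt
Il23r: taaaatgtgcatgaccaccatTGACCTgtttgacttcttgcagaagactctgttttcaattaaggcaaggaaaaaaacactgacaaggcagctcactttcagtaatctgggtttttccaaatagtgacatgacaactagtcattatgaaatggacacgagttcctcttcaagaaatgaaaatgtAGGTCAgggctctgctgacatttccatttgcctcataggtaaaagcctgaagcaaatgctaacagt
The word lies 120 to 115 bases before the start of Il17a, 58 to 53 bases before that of Il17f, and 229 to 224 and 66 to 61 bases before that of Il23r. The Il17f window lies inside a longer GENCODE model of the gene, and 26 of its bases are annotated as exon. Searched on both strands, the word occurred in 14% of 32851 RefSeq promoter windows of this length and for 15.8% of 27025 gene symbols. Of the 30 type 17 genes listed below, 24 had a promoter window and 6 of these held the word (5830411N06Rik, Actn2, Ccr6, Il17a, Il17f and Il23r). Of the 29 genes of the cytotoxic list 23 had a window and 2 held it (Ccl3 and Ncr1). GGAA, the core word of ETS factors such as Elf1, was in 93.4% of all windows and so separates nothing here. A match is a description of the letters and not a binding site.

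Other genes of the type 17 kind were higher in the same direction. The list held 30 genes, of which 23 had at least 20 UMIs over both libraries' members. Of these 19 were at least 2-fold higher in the library labelled knockout and 1, Serpinb1a, at least 2-fold lower, with a median log2 ratio of 1.65. Over the 4843 genes tested the same way, 17.4% were 2-fold or more higher and 11.1% lower, with a median of 0.07. The other 7 genes had too few UMIs (Il22, Ahr, Zbtb16, Kcnk1, Il17re, Sox13 and Il18r1), and because the labelled knockout members held more UMIs a gene could reach 20 through that library alone. Without carriers 15 of 21 were higher and 0 lower, with a median of 1.33, beside 17.6% and 8.12% of 3030 genes and a median of 0.14. Among the 3 and 44 members without alpha beta receptor RNA the median of the list was -0.23, where 8 of 10 genes had 0 UMIs in 1 library, taken as 3. Serpinb1a, a protease inhibitor, had 47 and 69 UMIs and a log2 ratio of -1.05, but 2 and 63 UMIs and a log2 ratio of 3.14 without carriers.

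The cytokine Il17f, the close relative of Il17a, had 0 wild-type UMIs and 76 in 13 labelled knockout members (9.22%), at least 8.33-fold higher with the wild-type 0 taken as 3. The interleukin 23 receptor Il23r had 1 and 20 UMIs, a ratio of 6.58 (1.05 to 273), and the interleukin 1 receptor Il1r1 9 and 86, a ratio of 3.14 (1.58 to 7.11), or 1.74 (0.669 to 5.72) without carriers. Il22, a cytokine that protects the epithelium, had no UMI in the members of either library. By the exact interval these zeros allow a UMI in up to 8.60% and 2.58% of members. This sets no limit on how many express the gene. Of these cytokines, IL-17A RNA was the most often seen, with IL-17F RNA in fewer members.

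Cd163l1, the scavenger receptor family member known as Scart1 that marks gamma delta T cells of this kind (chromosome 7, 140218267 to 140231145, plus strand), had 9 and 180 UMIs in 12.2% and 47.5% of members. Its ratio was 6.58 (3.39 to 14.6), and its UMIs were in 0% and 0.323% of B cells and 0% and 1.65% of CD4 T cells. Il7r, the receptor for the survival cytokine interleukin 7, was in 19.5% and 58.2% of members with a ratio of 4.63 (2.74 to 8.42). Cxcr6, a chemokine receptor of tissue lymphocytes, was in 12.2% and 45.4% with a ratio of 4.43 (2.52 to 8.48). After thinning these shares were 8.11% and 35.7% for Cd163l1, 16.2% and 44.2% for Il7r, and 10.8% and 34.9% for Cxcr6, against at most 2.07% of B cells. Il7r was also higher in CD4 T cells (30.8% and 64.5%) and CD8 T cells (20.7% and 45.5%).

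Of the transcription factors of the type 17 kind, Rora, a nuclear receptor, had 4 and 104 UMIs and was 8.55-fold (3.24 to 32.0) higher. Maf, which is needed by IL-17-producing gamma delta T cells, was in 14.6% and 45.4% of members, but 1.69-fold (1.06 to 2.80) higher by UMIs, with 22 UMIs in 6 wild-type members and 113 in 64 others. Sox13 had 3 and 14 UMIs. Blk, a kinase of B cells and of these gamma delta T cells, had 8 and 56 UMIs, a ratio of 2.30 (1.09 to 5.59), although B cells had Blk in 13.3% and 7.59%. The chemokine receptor Ccr6 and the leukotriene receptor Ltb4r1 had 0 wild-type UMIs and 31 and 30 in the other library, at least 3.40-fold and 3.29-fold higher. These factors and receptors rest on fewer UMIs than Il17a and their intervals are wide.

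Cytotoxic genes went the other way. Of 29 listed genes, 18 had at least 20 UMIs, of which 11 were at least 2-fold lower in the library labelled knockout and 1, Serpinb6b, higher, with a median log2 ratio of -1.96. Without carriers 12 of 18 were lower and 1 higher, with a median of -2.21. Over all genes 11.1% were lower and 17.4% higher, and without carriers 8.12% and 17.6%. Xcl1, a chemokine that draws dendritic cells (chromosome 1, 164931644 to 164935527, minus strand), had 102 UMIs in 14 wild-type members (34.1%) and 4 UMIs in 3 others (2.13%), 77.5-fold (29.4 to 290) lower. The killer-cell protease Ctsw was 12.5-fold (7.39 to 22.2) lower, in 68.3% and 7.09% of members. The granule protein Nkg7 was 7.60-fold (5.50 to 10.6) lower, in 68.3% and 13.5%, and the receptor Cd160 8.71-fold (4.75 to 16.9) lower.

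Cd7, a surface protein of T and natural killer cells, was in 68.3% and 19.1% of members and 4.74-fold (3.82 to 5.90) lower. The chemokine Ccl5 had 1091 and 771 UMIs in 68.3% and 20.6% of members, 4.30-fold (3.92 to 4.72) lower and 12.4-fold (10.9 to 14.2) without carriers, where 1013 and 292 UMIs were left. The chemokines Ccl4 (5.50-fold, 4.15 to 7.34) and Ccl3 (3.83-fold, 2.56 to 5.77), the receptor Klrd1 (4.10-fold, 2.72 to 6.23) and the cytokine Ifng (3.96-fold, 2.23 to 7.15) were lower as well. After thinning, Nkg7 was in 54.1% and 6.98% of members, Ctsw in 56.8% and 2.33%, Ccl5 in 56.8% and 14.7%, and Cd7 in 51.4% and 13.2%. B cells thinned the same way had Nkg7 in 0.219% and 0%, Ctsw in 0.493% and 0%, and Ccl5 in 2.74% and 2.07%.

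The granzymes differed less. Gzma was in 14.6% and 9.93% of members at 1758 and 1011 CPM, 1.74-fold (1.50 to 2.02) lower, and Gzmb in 19.5% and 24.1% at 478 and 200 CPM, 2.39-fold (1.75 to 3.25) lower. The pore former Prf1 had 1 and 2 UMIs. Klrk1, the activating receptor NKG2D, did not differ beyond counting error, with a ratio of 0.768 (0.432 to 1.42). Serpinb6b, a protease inhibitor, was 2.47-fold (1.27 to 5.36) higher, and Il2rb, the shared receptor chain of interleukins 2 and 15, 1.63-fold (1.10 to 2.51). In CD8 T cells the same libraries gave ratios of 0.863 for Nkg7 and 0.954 for Ccl5, against 0.132 and 0.233 in the members, a difference that was not tested.

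**Figure D3:**
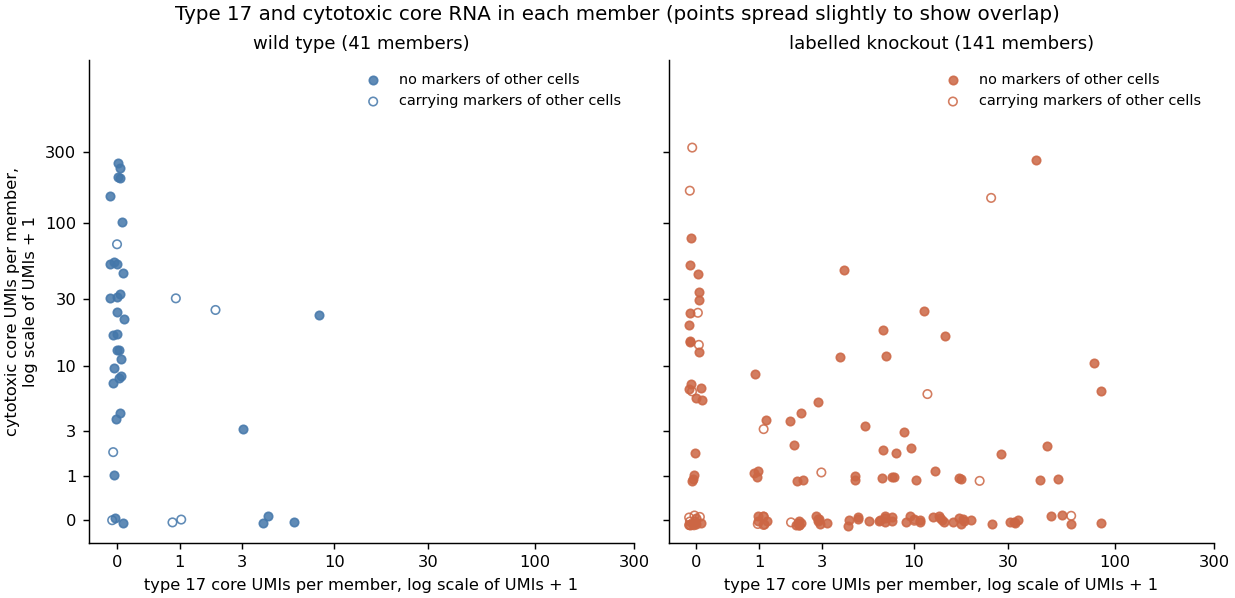
Each point is 1 member, by its UMIs of 9 type 17 core genes (horizontal) and of 9 cytotoxic core genes (vertical), on log scales of UMIs + 1. Open points are carriers of markers of other cells, and filled points are members under the limits for carriers. Most of the 41 wild-type members lie along the vertical axis and most of the 141 labelled knockout members have type 17 UMIs, with 43 holding both kinds.

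The members were also counted by the core RNA that each carried. The core lists hold genes whose ratios in these barcodes are given above, so the count is no separate evidence. The 9 type 17 core genes included Il17a, Il17f, Il23r, Blk, Sox13, Cd163l1, Tcrg-V6 and 5830411N06Rik, and the 9 cytotoxic core genes were Gzma, Gzmb, Prf1, Nkg7, Ccl5, Klrd1, Eomes, Tbx21 and Xcl1. Type 17 RNA alone was in 5 wild-type members (12.2%, 4.08 to 26.2) and 60 labelled knockout members (42.6%, 34.3 to 51.2). Cytotoxic RNA alone was in 29 (70.7%, 54.5 to 83.9) and 24 (17%, 11.2 to 24.3). Both kinds were in 4 (9.76%) and 43 (30.5%), and neither in 3 (7.32%) and 14 (9.93%).

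These classes are ranges of a count and not cell types. The type 17 call rested on a single UMI in 3 of 9 wild-type and 14 of 103 labelled knockout members, and the cytotoxic call in 1 of 33 and 21 of 67. Without carriers, type 17 alone was in 8.82% and 46.6% and cytotoxic alone in 79.4% and 16.4%. After thinning the shares were 13.5% and 45.7%, and 73.0% and 17.8%, and both kinds were in 2.70% and 17.8%. By the same count CD4 T cells had type 17 RNA alone in 5.48% and 23.1%, and CD8 T cells had cytotoxic RNA alone in 86.2% and 92.9%. The wild-type members thus lay nearer to CD8 T cells in this count and the labelled knockout members did not.

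Within the library labelled knockout, the members with and without Il17a were compared among those that were not carriers, 65 and 51 barcodes at medians of 1920 and 1635 UMIs. These are cells of 1 library and not replicates, and the values are a description. Trdv4 was in 69.2% of the Il17a-positive and 31.4% of the Il17a-negative members, while Tcrg-C1 was in 63.1% and 56.9%. The checkpoint receptor Pdcd1 was in 80.0% and 43.1%, the costimulatory receptors Tnfrsf9 in 64.6% and 27.5% and Icos in 56.9% and 21.6%, Cd163l1 in 66.2% and 39.2%, Maf in 61.5% and 31.4%, and Cxcr6 in 61.5% and 39.2%. In reverse, Ccl5 was in 10.8% and 33.3%, Nkg7 in 3.08% and 25.5%, Cd7 in 9.23% and 37.3%, Klrd1 in 4.62% and 23.5%, Cd160 in 4.62% and 7.84%, and Xcl1 in 0% and 5.88%. Of the granzymes, Gzmb was in 23.1% and 23.5%, and Gzma in 15.4% and 5.88%. Il7r (64.6% and 60.8%) and the widespread Saa3 (81.5% and 82.4%) were even. Of the cytotoxic genes given here, only Gzma was thus in a larger share of the Il17a-positive members. Gzmb was even and the others were in a smaller share.

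Several receptors of T cell activation were higher in the labelled knockout members. Of 32 listed genes 27 had at least 20 UMIs, of which 11 were 2-fold or more higher, 0 lower and 16 within 2-fold, beside 17.4% higher and 11.1% lower over all genes, with a median log2 ratio of 0.81. Without carriers 12 of 26 were higher and 1 lower, with a median of 0.87, and among the 3 and 44 members without alpha beta RNA the median was -0.10. Icos, a costimulatory receptor (chromosome 1, 60977927 to 61000320, plus strand), had 0 wild-type UMIs and 138 in 53 labelled knockout members (37.6%), at least 15.1-fold higher. Tnfrsf9, known as 4-1BB, had 6 and 186 UMIs, a ratio of 10.2 (4.6 to 28.1), and Pdcd1, the gene of PD-1, 9 and 204, a ratio of 7.46 (3.85 to 16.5).

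The interleukin 2 receptor alpha chain Il2ra was 8.23-fold (2.71 to 40.8) higher, Ctla4, an inhibitor of costimulation, 7.24-fold (2.73 to 27.2), and the stress gene Gadd45b 3.43-fold (2.32 to 5.25). After thinning, Icos was in 0% and 22.5% of members, Tnfrsf9 in 5.41% and 30.2%, and Pdcd1 in 2.70% and 38.8%, against at most 0.188% of B cells. Genes induced soon after receptor engagement were less than 2-fold apart: Nr4a1 had a ratio of 1.22 (1.06 to 1.40) and Cd69 was 1.67-fold (1.43 to 1.95) lower. In CD4 T cells Icos was even, at 52.7% and 53.7%. Tnfrsf9 had a ratio of 4.92 there.

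Of the proximal signalling genes, 1 of 16 was 2-fold higher and 2 were lower, with a median log2 ratio of -0.11, and without carriers 1 of 16 was higher and 5 lower, with a median of -0.71. Over all genes 17.4% were higher and 11.1% lower, and without carriers 17.6% and 8.12%. The count lower in all members was near that share. The higher signalling gene was the kinase Zap70, with 6 and 104 UMIs and a ratio of 5.70 (2.53 to 15.9). The kinase Lck, which acts before it, was 5.14-fold (3.1 to 8.70) lower, in 39.0% and 12.1% of members, and the adaptor Skap1 was lower by 1.24 on the log2 scale. Lck was in 70.7% and 71.7% of CD8 T cells. The 2 kinases of 1 pathway thus lay in opposite directions in the members.

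Among other cytokines, Csf2, the growth factor GM-CSF, had 5 and 59 UMIs, a ratio of 3.88 (1.57 to 12.4), in 7.32% and 13.5% of members. Beside the shares of 17.4% higher and 11.1% lower over all genes, of 15 cytokine genes with at least 20 UMIs 6 were higher (Il17a, Il17f, Tnfsf11, Vegfa, Csf2 and Il10) and 2 lower (Ifng and Hbegf), but without carriers Il10, Tnfsf11 and Vegfa were left with 9, 9 and 5 UMIs in the library labelled knockout. Tnf had a ratio of 1.13 (0.612 to 2.22) and Ltb, a cytokine of lymphoid tissue, of 1.40 (1.02 to 1.96). Of 18 cytokine receptor genes 6 were higher and 1, Il21r, lower, beside the same shares. In that list the median log2 ratio went from 0.35 to -0.01 without carriers.

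Homing and residency genes went both ways, with 9 of 26 higher and 2 lower (17.4% and 11.1% over all genes), and without carriers 9 of 24 higher and 4 lower. The integrin Itgae, known as CD103, which holds intraepithelial lymphocytes to the epithelium, had 21 and 9 UMIs and was 7.09-fold (3.11 to 17.6) lower. The gut-homing receptor Ccr9 had 7 and 0 UMIs, at least 7.09-fold lower with the 0 taken as 3. Ccr2, a receptor of cells recruited from blood, had 4 and 54 UMIs and was 4.44-fold (1.64 to 16.9) higher, and Cd44, an adhesion receptor of activated cells, 3.03-fold (1.52 to 6.87) higher. Itgae was lower in CD8 T cells too, in 32.2% and 5.05%.

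**Figure D4:**
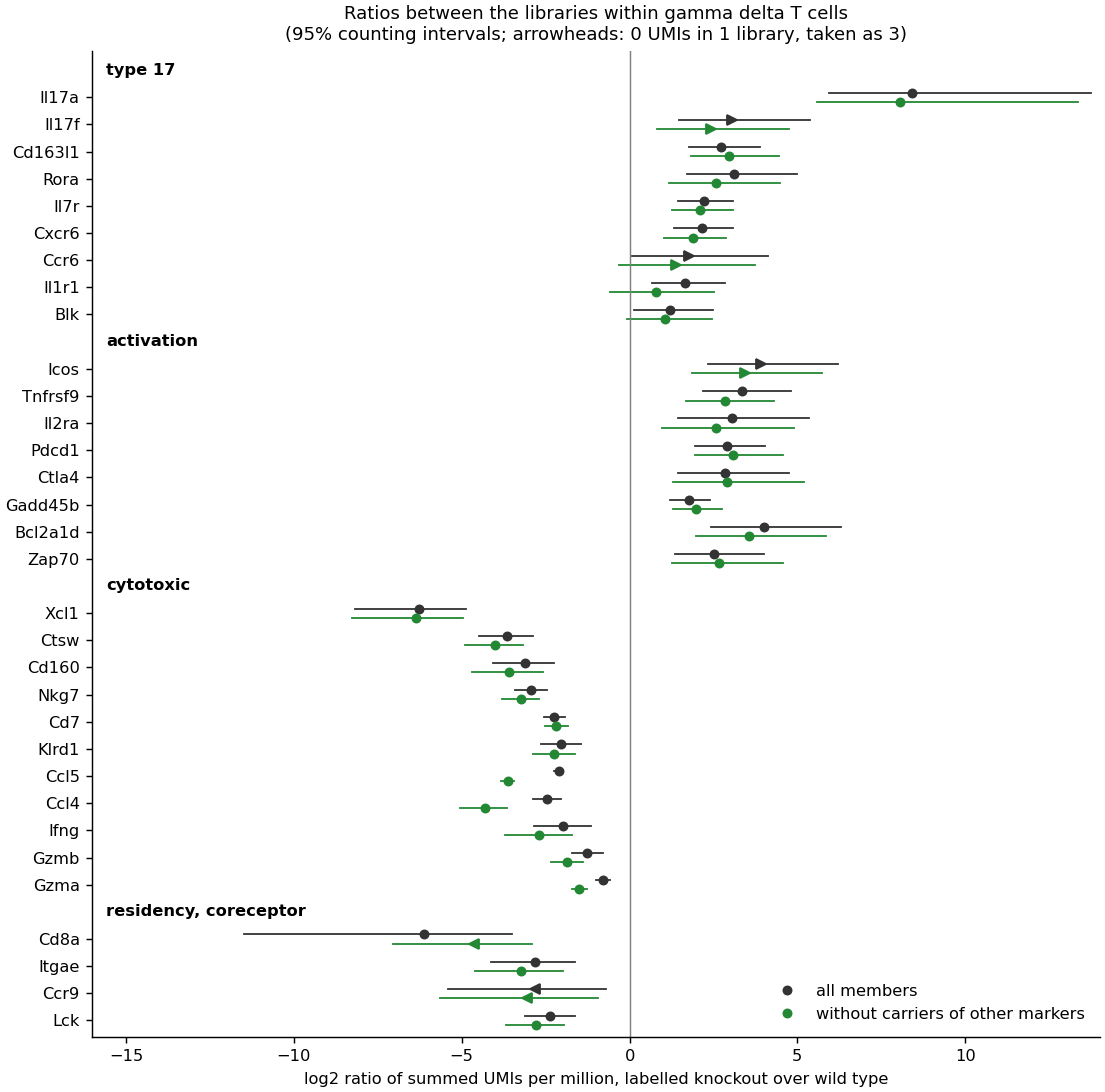
Log2 ratio of CPM, labelled knockout over wild type, for genes of 4 groups. Dark marks are all 41 and 141 members, green marks the 34 and 116 without carriers of other markers, lines are 95% counting intervals, and arrowheads mark genes with 0 UMIs in 1 library, taken as 3. Type 17 and activation genes lie to the right of 0 and cytotoxic, Cd8a, Itgae, Ccr9 and Lck marks to the left.

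Several further differences in the members were shared with B cells of the same libraries. Metallothionein Mt1, which binds zinc and copper, was in 41.5% and 89.4% of members and in 33.7% and 90.1% of B cells. The heat shock protein Hspa1a was 9.82-fold (7.90 to 12.3) lower in members and 28.6-fold lower in B cells, and Hspa1b 16.0-fold (10.8 to 24.3) and 38.3-fold. Of 15 heat shock genes 6 were 2-fold or more lower and 0 higher, with a median log2 ratio of -0.98, and without carriers 8 of 13 were lower. Over all genes 11.1% were lower and 17.4% higher, and without carriers 8.12% and 17.6%. Hspa1a and Hspa1b are near-identical copies. Of 7 metallothionein and iron genes 5 were higher and 1 lower, beside the same shares over all genes. Fth1, the heavy chain of ferritin, was among the higher, at a ratio of 4.79 (4.38 to 5.26), against 2.42 in B cells.

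Saa3 was in 26.8% and 84.4% of members and in 19.1% and 84.0% of B cells, and S100a8 in 7.32% and 64.5%. The 10 epithelial marker genes with at least 20 UMIs were all lower, with a median log2 ratio of -6.12, but 0 of the list reached 20 UMIs without carriers. Neutrophil markers were higher in 10 of 10, macrophage markers in 6 of 8 and fibroblast markers in 6 of 11. Over all genes 17.4% were higher and 11.1% lower. Summed over each list, the members held 2830 and 11 epithelial, 55 and 3185 neutrophil, 106 and 1127 macrophage and 880 and 8397 fibroblast UMIs. Without carriers these sums were 50 and 8, 31 and 374, 48 and 188, and 116 and 1366. Of markers of other lymphocytes, those of natural killer cells were higher in 0 of 2, of group 3 innate lymphoid cells in 4 of 9, of group 2 innate lymphoid cells in 2 of 4 and of regulatory T cells in 4 of 6, and 1 of these, the group 3 marker Tcf7, was lower. Epithelial, neutrophil and fibroblast markers thus moved with the library. Of 4 macrophage markers left without carriers 1 was higher and 1 lower, with a sum of 608.6 and 667.3 CPM. The part of the markers of other cells in the ratios of the genes in this paragraph was not tested. By contrast Il17a was in 0.0992% and 1.13% of B cells, Nkg7 in 0.744% and 0.323% and Icos in 0.397% and 0.323%, so the level of these in B cells was near 0 in both libraries.

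Interferon-response genes were lower in 10 of 20 and higher in 0, beside 11.1% lower and 17.4% higher over all genes, with a median log2 ratio of -0.92, and without carriers in 7 of 14. The immunity-related GTPase Ifi47 was 3.36-fold (1.72 to 6.61) lower and the immunoproteasome subunit Psmb9 3.23-fold (1.93 to 5.41), beside 2.32-fold and 1.98-fold in B cells. Isg15 was 2.59-fold (1.52 to 4.38) lower, and 1.32-fold (0.571 to 2.82) without carriers. The NF-kappa B feedback list had 4 of 13 higher and 0 lower, and the AP-1 list 0 of 21 higher and 1 lower. Glycolysis genes had 4 of 18 higher and 1 lower. The shares over all genes were 17.4% higher and 11.1% lower, and the glycolysis share higher was close to it. Without carriers 6 of 11 glycolysis genes were higher and 0 lower, beside 17.6% and 8.12% of all genes, with a median moving from -0.02 to 1.18. Hif1a, the transcription factor of the response to low oxygen, was 2.65-fold (1.86 to 3.88) higher, in 17.1% and 73.8% of members, beside a ratio of 1.19 in B cells. Of the ETS family, to which Elf1 belongs, 1 of 10 was higher (Elf2) and 3 lower (Elf3, Etv6 and Elk4), and of the 93 wild-type UMIs of the epithelial factor Elf3 1 was left without carriers.

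**Figure D5:**
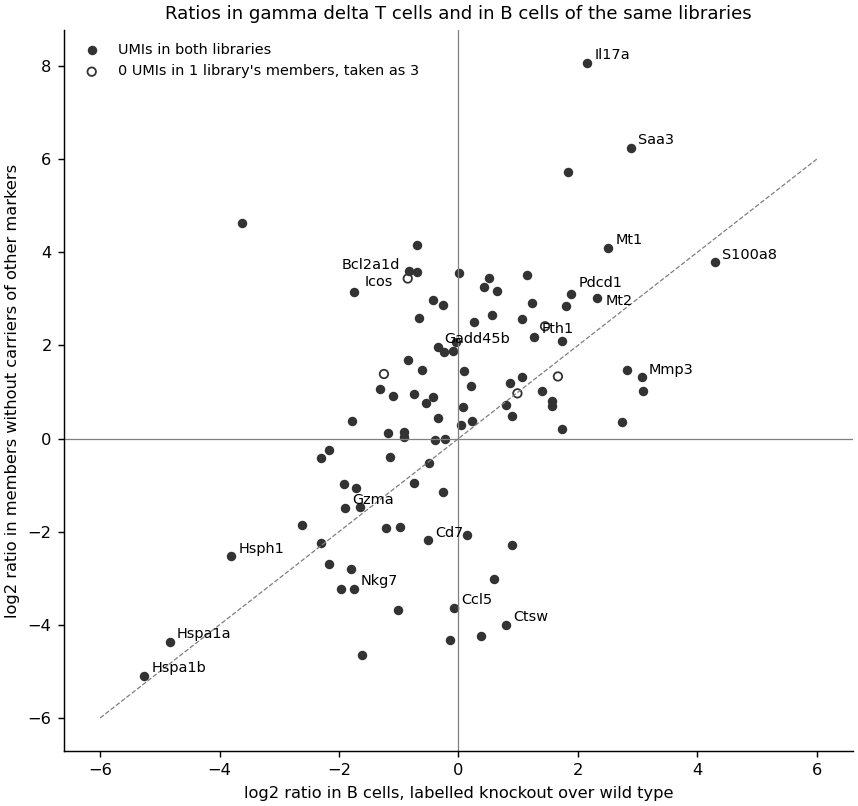
Log2 ratio, labelled knockout over wild type, in B cells (horizontal) and in members without carriers (vertical) for 98 genes; the dashed line marks equal ratios. Open points had 0 UMIs in 1 library's members, taken as 3. Saa3, Mt1, Hspa1a and Hspa1b lie on the same side of 0 in both populations, while Il17a and Icos lie high and Ctsw and Ccl5 low in the members alone or more than in B cells.

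Set against the conventional CD4 and CD8 T cells of the same library, the members of both libraries had lower levels of alpha beta receptor genes. Of 5779 genes with enough UMIs, 3.31% were 2-fold or more higher in the members of both libraries and 4.29% lower. Without carriers these were 1.8% and 2.68% of 4770 genes. All 10 listed alpha beta receptor genes with enough UMIs were lower in both, and 8 of 10 without carriers. Cd5, an inhibitor of receptor signalling, had 12.4 and 16.3 CPM in members against 264.4 and 200.4 CPM in the others, 21.3-fold (5.83 to 177) and 12.3-fold (6.06 to 29.0) lower. The costimulatory receptor Tnfrsf4, known as OX40, had 0 and 20.4 CPM against 387.2 and 679.8 CPM. That gap lay with the CD4 T cells, which had 804.4 and 1244.9 CPM of Tnfrsf4. CD8 T cells had 26.4 and 6.15 CPM of it, so the labelled knockout members were not below them. The adaptor Sh2d1a was 12.3-fold (4.14 to 60.1) and 23.1-fold (7.68 to 114) lower, and Klrg1, Izumo1r and Gzmk were lower as well. Izumo1r, like Tnfrsf4, was higher in CD4 than in CD8 T cells of both libraries, and Klrg1 and Gzmk were the other way round. Members were chosen without Cd4, so low levels of genes of CD4 T cells are no separate finding.

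Cell-cycle genes were lower in the members of both libraries in 11 of 20, and without carriers in 6 of 20. Their median log2 ratios over CD4 and CD8 T cells were -1.51 and -1.39. Over all genes in this comparison 4.29% were lower and 3.31% higher in both libraries, and without carriers 2.68% and 1.8%. These shares also stand beside the type 17, cytotoxic and AP-1 counts in both libraries given below. Within the members, 4 of 13 were higher in the library labelled knockout and 0 lower, with a median log2 ratio of 0.67. Over all genes 17.4% were higher and 11.1% lower. Without carriers 2 of 11 cell-cycle genes were higher and 0 lower, with a median of 0.26. The share higher was then near that over all genes, 17.6%. The type 17 list had a median of -0.11 in the wild-type and 1.27 in the labelled knockout library over 15 genes, with 4 higher in both, and 2 of 10 without carriers. The cytotoxic list had medians of -0.66 and -1.77 over 24 genes, with 0 higher and 5 lower in both, or 1 higher and 3 lower without carriers. The immediate early AP-1 list had 3 of 20 higher in both libraries and 0 lower, and 1 of 20 higher without carriers.

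The 12 genes farthest above the CD4 and CD8 T cells in both libraries included several known from fibroblasts or epithelium. They were Il6, Il33, Col8a1, Ereg, Mmp13, Cystm1, Nid1, S100a16, Hbegf, Cxcl5, Atp8b1 and Pcolce. Il6 had 15 and 75 UMIs in all members and 0 and 4 without carriers, and Il33 35 and 83, and 0 and 0 without. Without carriers the leading genes were Il11, Mmp3, Ereg, Ptgs2, Igfbp5, Cxcl2, Sod3, Serpine2, Mmp10, Cxcl1, Myo1e and Col18a1. In the wild-type library their UMIs lay in few of these members. Mmp3 had 89 UMIs and Mmp10 60, each in 2.94%, and Il11 had 40 and Serpine2 22, each in 5.88%. The other leading genes were in 5.88% to 17.6%. Among the leading genes Ereg, a growth factor for epithelial cells, had 18 and 79 UMIs in 8.82% and 7.76% of members, against 7.04% and 13.1% of B cells. Mmp3, a matrix protease of fibroblasts, was in 2.94% and 34.5% of these members and 5.01% and 41.7% of B cells. The shares of members with Ereg or Mmp3 were thus at or near those in B cells.

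The genes with the most extreme ratios between the libraries were taken by a fixed rule that leaves out receptor genes and markers of other cells. Without carriers the 12 highest were Il17a, Saa3, Ccl2, Mcub_2, Bcl2a1a, Mt1, Isy1, Bcl2a1d, Fam110a, Srxn1, Prdm1 and Icos. The survival protein genes Bcl2a1a and Bcl2a1d, close copies that reads may be split between, had 1 and 64 UMIs (17.9, 3.1 to 719) and 3 and 127 UMIs (11.9, 3.96 to 58.2) in these members, and in B cells their ratios were 0.617 and 0.621. Prdm1, a transcription factor of tissue-resident lymphocytes, had 1 and 39 UMIs, a ratio of 10.9 (1.85 to 442). Ccl2, a chemokine for monocytes, had 1 and 189 UMIs, and was also in 6.30% and 29.4% of B cells. Fam110a and Mcub_2 were in 5.88% and 39.7% and in 2.94% and 38.8% of these members.

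The 12 lowest without carriers were Xcl1, Hspa1b, Car2, Cd8a, Hspa1a, Ccl4, Ccl3, Ctsw, Hspb1, Gimap7, Ifi27l2a and Ccl5. Car2, a carbonic anhydrase, had 28 and 4 UMIs in 29.4% and 2.59% of these members and was 25-fold (8.75 to 98.1) lower, beside 4.02% and 3.72% of B cells. The lymphocyte GTPase Gimap7 was 12.8-fold (6.63 to 26.7) lower, in 44.1% and 6.90%, beside 12.5% and 9.05% of B cells. With carriers kept, the highest also included Grem1, Fbln2, Slpi, Wfdc17, Cygb, Sulf1, Ninj1 and Cxcl13 and the lowest Lypd8, Cldn7, Ckmt1, Ms4a8a, Cldn3, Prss32, Sfn, Pigr and Dapk2. Lypd8, a protein that the colonic epithelium secretes, had 807 and 0 UMIs (at least 818-fold lower), with 98.8% of the wild-type UMIs in carriers. Grem1, a product of stromal cells, had 3 and 376 UMIs, with 84.8% of the latter in carriers. Without carriers the counting interval still excluded 1 for Dapk2, a kinase, with 16 and 2 UMIs. It also did for Grem1 (0 and 57 UMIs), Lypd8 (10 and 0) and Sfn (6 and 4), with 0 taken as 3.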

How the data were processed

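Cells of the colon and rectum, pooled from 3 mice a library, were made into 1 library a group with Singleron GEXSCOPE reagents, per the labels' protocols. The deposited files hold raw UMI counts per gene and barcode. The authors made these counts with cutadapt 1.17, STAR 2.6.1a and featureCounts 2.0.1 on GRCm38, per the submitters' processing notes, and barcode filters are not stated. The members and the 30 gene lists were chosen with earlier results of these data known.

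UMI counts of the members were summed per library with scanpy 1.11.5 and scipy 1.17.1. Levels are CPM, and ratios have exact conditional binomial 95% intervals, with 0 taken as 3 UMIs. Shares have exact Clopper-Pearson intervals. The ratio calculation was tested on simulated data. These were drawn with counting error alone from a common profile with set folds, as the intervals assume, so the unevenness of the real members was not covered. A gene was counted in a list or in the background with at least 20 UMIs over both libraries, and called at 2-fold. Genes are named as the 12 with the largest ratios in each direction (a UMI in at least 10% of the members of 1 library, interval excluding 1), as the 12 highest and 6 lowest against CD4 and CD8 T cells in both libraries, or as members of the lists, receptor genes, Elf1 and the 5 markers. These rankings leave out mitochondrial, ribosomal, haemoglobin, immunoglobulin, receptor, sex-linked and rule genes and the markers of other cells.

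Doublets were called with scrublet at an expected rate of 0.06. It marked 0.0369% of wild-type barcodes, too few to have worked, so the top 5% of scores (409 barcodes) stood in for its calls there, and 2.93% (285) of the others. Called doublets were kept, and removed in an alternative. Alternatives changed the Trdc, CD3, UMI and mitochondrial limits, the depth, the scaling (TMM of edgeR 4.0.16), the weighting, the filter on low counts and the carriers of other markers. Tcrg-V3, Trdv1, Il3, Il9 and Areg are not analysed here, and 1 gene of the type 17 list is not reported here by name.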

Additional observations from a re-analysis of the deposited data

Results flagged for a closer look

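Trdc was detected outside the members. A Trdc UMI was found in 23.5% of the fibroblasts of the library labelled knockout (median 6249 UMIs) and in 1.95% of those of the wild-type library (median 4318 UMIs), and after thinning to 1000 UMIs in 6.45% and 0.695%. B cells thinned the same way had it in 0.564% and 0%, in the same order, neutrophils in 0.604% and 0%, and macrophages in 0.820% and 0.442%. These barcodes entered no comparison, and the source of this RNA was not tested.

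Xcl1, Gadd45b and Bcl2a1d lay on opposite sides of the CD4 and CD8 T cells in the 2 libraries. On the log2 scale, Xcl1 in members over those T cells was 0.90 in the wild type and -2.21 in the library labelled knockout. Gadd45b was -1.31 and 0.31, and Bcl2a1d -2.79 and 0.62. With 1 library a group these differences between libraries were not tested.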

How the results depend on the processing

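With 1 library a group no replicate could be left out. No paired analysis was possible because each group is 1 library and nothing was tested. TMM shifted every log2 ratio by 0.11 and turned none of 143. The share of CD3 barcodes had a ratio of 3.22 to 3.69 under the other alternatives and 14.4 among members without alpha beta receptor RNA, of which there were 3 and 44. With those 3 wild-type members, type 17 RNA alone was in 0% and cytotoxic RNA alone in 33.3% of the wild type. There the median log2 ratios were -0.23 for the type 17 list, -1.10 for the cytotoxic list, -0.55 for cytokines, -0.10 for activation and 0.29 for heat shock genes, Runx3 was -0.10, Serpinb6b -1.78 and Klrg1 over CD4 and CD8 T cells 0.054. The cytotoxic median was -2.59 with at least 2 Trdc UMIs, -2.41 after thinning and -2.44 as a mean over members. Serpinb1a was 1.51, 2.33 and 1.84 in these, and 3.14 without carriers of other markers, where Slpi was -0.14. Over CD4 and CD8 T cells, the smaller log2 difference was -0.56 for Mmp13, Cxcl5 and Pcolce after thinning and -1.48 for Cystm1 with at least 2 Trdc UMIs. The log2 ratio of Il17a was 8.43, and 7.10 after thinning, 8.06 without carriers, at least 6.38 with at least 2 Trdc UMIs and at least 2.21 without alpha beta RNA, the wild-type 0 taken as 3. Reversals numbered 7 without alpha beta RNA, 4 after thinning, 2 with at least 2 Trdc UMIs, 2 without carriers and 1 as a mean over members. None occurred without called doublets or at a mitochondrial limit of 10%. Except for the fewer members in each alternative, the cause was not tested. The 41 wild-type members limit every ratio.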
